A study of Mus musculus with 12 samples.

Results

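Immunoglobulin variable segments in mouse lung RNA are described here: the genes of the expression table whose symbol starts with Ighv (heavy chain), Igkv (kappa light chain) or Iglv (lambda light chain) and whose counts over the 12 libraries summed to at least 10. Of 56980 genes in the table, 346 carried such a symbol, 224 of these had a count in some library, and 170 reached the minimum. The 170 comprised 84 heavy, 83 kappa and 3 lambda segments. Just outside the minimum lay Ighv15-2, Ighv8-5, Igkv4-77, Igkv10-95 and Igkv4-69, each with a summed count of 8, and just inside it lay Ighv14-1 with 10, Ighv1-2 and Igkv4-54 with 11 and Ighv2-6-8 with 12. The 54 rows left out held 187 counts in all, against 42623 in the 170 members. Members were 338 to 501 bases long in the table. Counts were not divided by length, and dividing them kept the leading segment in 11 of 12 libraries. The annotation GENCODE M21 lists 2 members, Ighv1-2 and Igkv3-11, as pseudogenes.

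The lungs came from male C57BL/6 mice with an age of 6 to 8 weeks given for the animals, with 4 libraries in each of 3 groups. Control mice received distilled water. Model mice received a single dose of bleomycin into the trachea (5 mg/kg), which scars the lung, and distilled water. HBG mice received the same bleomycin and Huashibaidu granules by mouth (7 g/kg), and their titles carry the abbreviation HSBD. The sources differ on when the granules were given. The study's design text puts their start 1 week before bleomycin and their end at day 28, when the mice were killed, whereas the sample protocols put the start at day 7 after bleomycin and the length at 14 days. No genotype other than the strain is given, nor whether the Control mice received an instillation into the trachea. The labels number the libraries of a group 1 to 4 and do not say that each came from another mouse, so the spread between libraries may be in part technical.

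A variable segment encodes most of the antigen-binding end of an antibody chain. Each B cell joins 1 heavy and 1 light variable segment to short joining segments in its own DNA, and its daughter cells keep the choice. Antibody-secreting plasma cells hold far more immunoglobulin RNA per cell than resting B cells, and a clone of plasma cells can therefore raise a single heavy and a single light segment in bulk RNA. In the lung such cells sit in the airway wall, where many make immunoglobulin A, and in lymphoid follicles that form after injury. In bulk tissue, fewer cells of a type and less RNA per cell cannot be told apart.

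The coding sequences of 6 members carry the results below and are therefore shown. Bases 1 to 300 of each, counted from the start codon, were taken by gene identifier from GENCODE M21 (GRCm38), run 5′ to 3′ on the coding strand, and are the germline reference rather than the rearranged transcripts of these mice. Capitals mark the bases that differ from the partner named with each. Iglv1 (ENSMUSG00000076934, gene at chr16:19085017-19085500, minus strand) and Iglv2 (ENSMUSG00000076940, chr16:19260401-19260859, minus strand) are shown against each other, because Iglv2 was the 1 segment past the test and its neighbour in sequence is the most abundant lambda segment. Ighv1-19 (ENSMUSG00000096410, chr12:114708648-114709135, minus strand) and Ighv1-20 (ENSMUSG00000095761, chr12:114723772-114724205, minus strand) are also shown against each other, because both were among the 3 most used segments of Model 4. Igkv6-20 (ENSMUSG00000076587, chr6:70335841-70336507, minus strand), the leading segment of that library, is shown against Igkv6-15. Igkv10-96 (ENSMUSG00000094420, chr6:68631963-68632442, minus strand), the leading segment of 8 libraries, is shown against Igkv10-94.
Iglv1: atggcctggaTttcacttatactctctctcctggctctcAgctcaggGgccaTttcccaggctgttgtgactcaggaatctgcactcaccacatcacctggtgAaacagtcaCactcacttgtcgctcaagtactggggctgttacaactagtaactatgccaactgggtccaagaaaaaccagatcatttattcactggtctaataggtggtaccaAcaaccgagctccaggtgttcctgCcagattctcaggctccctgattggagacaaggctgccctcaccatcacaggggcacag
Iglv2: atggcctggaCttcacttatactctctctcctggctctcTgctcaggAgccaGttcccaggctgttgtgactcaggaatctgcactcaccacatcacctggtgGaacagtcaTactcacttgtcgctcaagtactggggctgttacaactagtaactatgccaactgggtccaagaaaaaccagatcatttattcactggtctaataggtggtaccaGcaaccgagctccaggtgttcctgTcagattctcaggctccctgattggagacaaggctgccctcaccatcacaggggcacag
Ighv1-19: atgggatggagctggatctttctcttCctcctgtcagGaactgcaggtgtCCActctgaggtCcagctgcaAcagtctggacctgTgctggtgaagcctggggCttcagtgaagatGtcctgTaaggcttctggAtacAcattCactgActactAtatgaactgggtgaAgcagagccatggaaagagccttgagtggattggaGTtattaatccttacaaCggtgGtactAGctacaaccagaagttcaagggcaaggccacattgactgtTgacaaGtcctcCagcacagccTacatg
Ighv1-20: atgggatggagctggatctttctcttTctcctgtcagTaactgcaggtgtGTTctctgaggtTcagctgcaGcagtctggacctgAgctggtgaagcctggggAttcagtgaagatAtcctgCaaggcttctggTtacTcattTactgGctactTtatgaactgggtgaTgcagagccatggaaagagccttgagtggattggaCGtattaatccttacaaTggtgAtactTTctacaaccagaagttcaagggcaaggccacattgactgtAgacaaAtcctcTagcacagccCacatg
Igkv6-20: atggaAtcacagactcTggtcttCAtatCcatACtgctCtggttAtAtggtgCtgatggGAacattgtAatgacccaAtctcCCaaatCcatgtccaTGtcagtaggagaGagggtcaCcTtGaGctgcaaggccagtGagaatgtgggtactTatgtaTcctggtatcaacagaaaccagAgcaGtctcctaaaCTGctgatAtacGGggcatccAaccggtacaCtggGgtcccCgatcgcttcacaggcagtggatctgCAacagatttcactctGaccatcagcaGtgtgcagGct
Igkv10-96: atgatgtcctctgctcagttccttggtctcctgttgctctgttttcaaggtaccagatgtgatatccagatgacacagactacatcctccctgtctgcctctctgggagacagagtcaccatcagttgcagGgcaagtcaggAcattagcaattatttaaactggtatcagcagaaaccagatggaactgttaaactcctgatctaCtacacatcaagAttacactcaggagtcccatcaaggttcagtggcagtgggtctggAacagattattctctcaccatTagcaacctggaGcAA
Over their whole coding length of 351 bases, Iglv1 and Iglv2 differed at 11 bases (96.87% identity), of which 8 are in the stretch shown. Ighv1-19 and Ighv1-20 differed at 31 of 351 bases (91.17% identity), Igkv10-96 and Igkv10-94 at 16 of 347 bases (95.39% identity), and Igkv6-20 and Igkv6-15 at 58 of 347 bases (83.29% identity). Of the 168 members with a coding sequence in the annotation, 73 had another member at 95% identity or more, 8 had one at 98% or more, and 0 had an identical one. The median identity to the nearest member was 94.54%. Counting tools can divide reads between such near copies differently, so the values of segments with a close neighbour are uncertain to that extent.

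Total counts per library ranged from 17979863 to 27150787. Depending on the library, a count of 0 allows up to 0.1165 to 0.166 CPM (counts relative to library size, corrected by TMM factors). Lung epithelium markers (Sftpc, Sftpb, Ager, Scgb1a1, Hopx and Foxj1) summed to 60783 to 82970 CPM in Control, 34846 to 54080 CPM in Model and 29951 to 68975 CPM in HBG, so each library held lung RNA. The sum lay lower in Model than in Control with no overlap. Among these markers Scgb1a1 alone did so, at 43180 to 61043 CPM in Control and 16258 to 31884 CPM in Model. Each of the others overlapped between Control and Model, and Sftpb and Ager had higher means in Model. Macrophage markers summed to 122 to 223 CPM in Control, 184 to 2086 CPM in Model and 207 to 933 CPM in HBG. The part of these differences in the segment results was not tested. Heart muscle markers summed to between 283 and 4594 CPM. Model 2 and HBG 3 stood apart in lymphoid markers. Their T cell markers summed to 146 and 162 CPM against 16.4 to 65.8 CPM in the other libraries.

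The summed level of the segments was low in the 4 Control lungs and reached higher values in most, not all, lungs given bleomycin. The segments summed to 40.3, 31.1, 37.1 and 71.5 CPM in Control 1 to 4. They summed to 263, 231, 121 and 51.2 CPM in Model 1 to 4. In HBG 1 to 4 they summed to 673, 98.1, 393 and 56.8 CPM. Thus 3 of 4 Model libraries and 3 of 4 HBG libraries lay above every Control library, while Model 4 and HBG 4 lay within the Control range. The group means were 45.03 ± 18.1 CPM in Control, 167 ± 98.2 CPM in Model and 305 ± 287 CPM in HBG (SD, n = 4 each), which are ratios of 3.70 for Model over Control, 6.78 for HBG over Control and 1.83 for HBG over Model. HBG 1 alone held 32.5% of the segments' CPM summed over all libraries, and HBG 3 held 19.0%. On the mean log2 scale Model exceeded Control by 1.71, and by 1.71 without Control 4, Model 2 and HBG 3 together. On that scale HBG exceeded Model by 0.49, and without HBG 1 the difference was -0.10, so the direction between the bleomycin groups rested on that library. These totals are descriptions without a test.

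**Figure D1:**
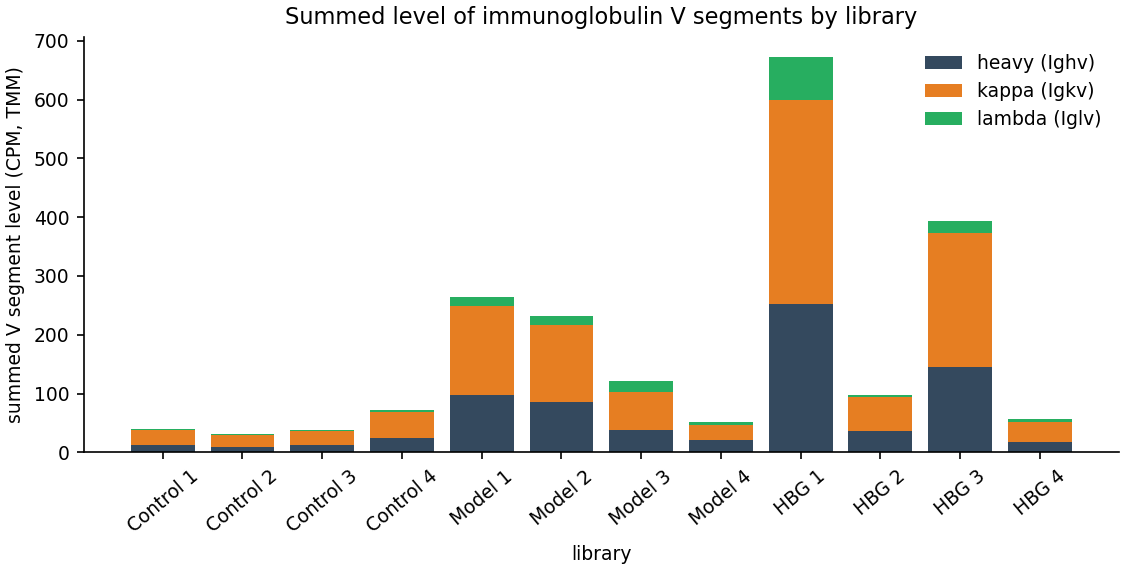
Summed level of heavy, kappa and lambda V segments (CPM with TMM factors, vertical axis) in each of the 12 libraries (horizontal axis), with 1 stacked bar per library. Control libraries lie between 31.1 and 71.5 CPM, and Model 4 and HBG 4 lie in the same range while HBG 1 reaches 673 CPM.

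The constant region genes and the markers of antibody-producing cells give the surroundings of these totals. Jchain, which links the units of secreted immunoglobulin A and M, was at 25.2, 20.9, 24.7 and 32.6 CPM in Control 1 to 4. It was at 200, 61.0, 76.5 and 21.4 CPM in Model 1 to 4, and at 356, 58.2, 96.3 and 38.9 CPM in HBG 1 to 4. Jchain in Model 4 thus lay within the Control range, as its segments did, while the HBG and Control ranges did not overlap. Ms4a1, the B cell surface protein CD20, followed another order, with 14.3 CPM in Control 4, 33.4 CPM in Model 2 and 62.8 CPM in HBG 3 against 1.499 to 10.3 CPM elsewhere. The 15 B cell markers, of which 0 were at 0 in any library, summed to 50.9 to 305 CPM in Control, 81.0 to 459 CPM in Model and 82.2 to 640 CPM in HBG. The highest library in each group was again Control 4, Model 2 and HBG 3. Vpreb3 followed another order, with its lowest level in HBG 3 at 10.2 CPM, and made up 17.8 of the 50.9 CPM in Control 2. The part of these marker levels in the segment totals was not tested. The 13 genes listed for antibody-secreting cells summed to 722 to 813 CPM in Control, 698 to 1184 CPM in Model and 741 to 1263 CPM in HBG, where Sdc1, Xbp1 and Txndc5, which lung epithelium or other cells also express, made up most of the sum. Not all of them followed Jchain. Prdm1, Xbp1 and Creld2 had lower means in Model than in Control, and the others higher ones. Prdm1 was at 6.82 CPM in Model 1 and 6.38 CPM in HBG 1, the libraries highest in Jchain, against 8.10 to 15.5 CPM in Control. In the test across all genes, 0 of the 15 B cell markers, 0 of the 12 tested genes of antibody-secreting cells and 0 of the 11 tested constant region genes passed in any of the 3 comparisons. Of all genes tested, 0.0505% passed and were higher in Model than in Control, 0% in HBG than in Model and 0.0224% in HBG than in Control. At an unadjusted p under 0.05, 4 of 11 constant region genes were higher in Model than in Control (all genes 6.36%), 1 was higher in HBG than in Model (all genes 0.735%) and 7 were higher in HBG than in Control (all genes 3.59%).

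Of the 3 chains, the lambda sum alone separated both bleomycin groups from Control in every library. Lambda segments summed to 2.64, 2.40, 1.28 and 3.60 CPM in Control 1 to 4. They summed to 14.98, 15.7, 19.5 and 5.27 CPM in Model 1 to 4 and to 74.1, 4.10, 20.6 and 5.54 CPM in HBG 1 to 4. Each Model and each HBG library was above every Control library, which was not so for the heavy or the kappa sum. The gap between Control and HBG was narrow, with 73 lambda counts in Control 4 and 76 in HBG 2. Heavy segments averaged 14.5 ± 6.49 CPM in Control, 60.3 ± 36.4 CPM in Model and 113 ± 108 CPM in HBG, and kappa segments 28.0 ± 10.9, 92.6 ± 58.7 and 166 ± 148 CPM (SD, n = 4 each). As a share of all V counts, kappa took 60.9 to 65.2% in the Control group, 48.5 to 57.6% in the Model group and 51.5 to 59.0% in the HBG group, so that both bleomycin groups lay below Control with no overlap. The number of kappa counts per lambda count was 8.46 to 18.0 in the Control group, 3.26 to 10.1 in the Model group and 4.69 to 13.9 in the HBG group, and these ranges overlapped.

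The heavy segments were also compared with the heavy constant regions, whose rearranged transcripts start with the variable segment. The ratio of the Ighv sum to the sum of Ighm, Ighd, the Ighg genes, Ighe and Igha, in counts and not per length, was 0.0926, 0.0811, 0.0953 and 0.0857 in Control 1 to 4. It was 0.128, 0.135, 0.101 and 0.125 in Model 1 to 4 and 0.139, 0.130, 0.177 and 0.106 in HBG 1 to 4. Both bleomycin groups lay above Control with no overlap, including the libraries whose segment totals were in the Control range. For kappa the ratio to Igkc was 0.274 to 0.368 in the Control group, 0.292 to 0.526 in the Model group and 0.405 to 0.754 in the HBG group, so there HBG alone lay above Control.

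The class mix of the heavy constant regions differed between libraries. Igha, the mucosal class, took 28.0 to 74.95% of the summed heavy constant CPM, not corrected for length. Immunoglobulin G (the Ighg genes) took 4.97 to 7.54% of the heavy constant level in the Control group, 7.04 to 30.6% in the Model group and 8.67 to 35.0% in the HBG group. The shares in Model 1, Model 3 and Model 4 were 17.1, 26.6 and 30.6%, and that in HBG 1 was 35.0%. Those 4 libraries were also the most concentrated in segment usage, as given below, and the relation was not tested. Ighg2c, a class of the C57BL/6 strain made in many inflammatory responses, was at 3.65 to 6.70 CPM in Control. It was at 90.7, 19.97, 81.04 and 43.4 CPM in Model 1 to 4. In HBG 1 to 4 it was at 267, 10.7, 36.3 and 7.53 CPM. Both bleomycin groups thus lay above Control with no overlap, though Ighg2c did not pass the test across all genes.

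The number of segments detected was compared both as counted and at equal numbers of V counts, and the order of the groups differed between the 2. At least 1 count was found for 116, 112, 135 and 134 segments in Control 1 to 4, for 149, 165, 125 and 100 in Model 1 to 4, and for 163, 141, 166 and 121 in HBG 1 to 4. The summed V counts behind these numbers ranged from 623 in Control 2 to 14452 in HBG 1. In all 12 libraries 63 segments were detected, and 27 members never exceeded 9 counts in a library. When each library was reduced to 623 V counts by the hypergeometric expectation, 112, 112, 121 and 114 segments remained in Control, 98.9, 120, 88.8 and 88.4 in Model and 105, 113, 126 and 111 in HBG. Model 1, Model 3 and Model 4 were then below every Control library, Model 2 was inside the Control range, and HBG spanned it on both sides. The means at equal counts were 115 ± 4.08 in Control, 99.0 ± 14.8 in Model and 114 ± 8.94 in HBG (SD, n = 4 each).

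Usage was spread over many segments in Control and concentrated on few in 3 of 4 Model libraries and 1 of 4 HBG libraries. The effective number of segments is the inverse of the summed squared shares, and equals the number of segments that would give the same evenness if all were used equally. It was 46.4, 38.1, 53.4 and 48.1 in Control 1 to 4. It was 30.6, 54.7, 17.0 and 12.9 in Model 1 to 4 and 26.0, 45.6, 54.9 and 46.2 in HBG 1 to 4. Model 1, Model 3, Model 4 and HBG 1 lay below every Control library, whereas Model 2 and HBG 3 lay above every one. The 10 most used segments took 32.1 to 42.05% of the V counts in Control, 46.3, 32.5, 55.6 and 61.8% in Model 1 to 4 and 47.3, 36.0, 31.7 and 36.4% in HBG 1 to 4. The group means of the effective number were 46.5 ± 6.32, 28.8 ± 18.9 and 43.2 ± 12.2 in Control, Model and HBG (SD, n = 4 each), and the ranges of all 3 groups overlapped. Concentration did not follow the total. HBG 1 had the most V counts and an effective number of 26.0, while Model 4 had 1010 V counts and an effective number of 12.9. The 3 libraries richest in Ms4a1, Control 4, Model 2 and HBG 3, had effective numbers of 48.1, 54.7 and 54.9. Control 3 had 53.4 with Ms4a1 at 4.23 CPM, and HBG 1 had 26.0 with Ms4a1 at 10.3 CPM. The relation of Ms4a1 to the effective number was not tested.

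**Figure D2:**
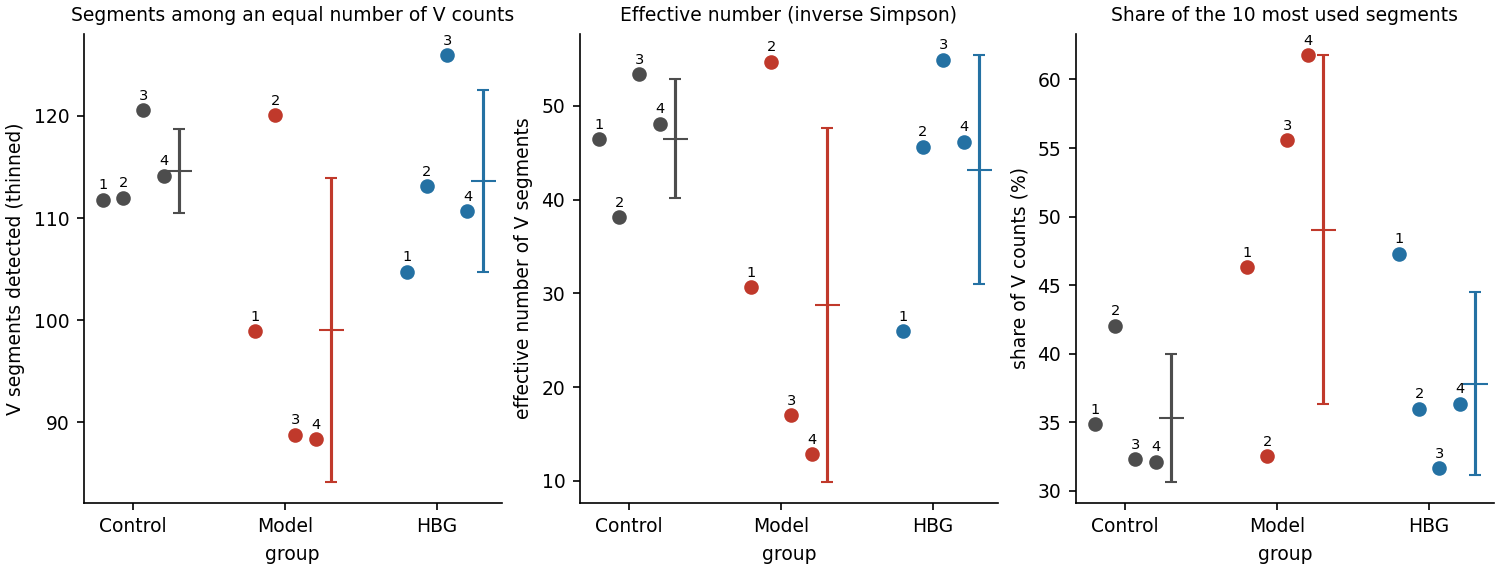
Number of V segments expected among 623 V counts, effective number of V segments, and share of V counts taken by the 10 most used segments (percent), with 1 numbered point per library and the group mean ± SD beside the 4 points of Control, Model and HBG. The vertical axes do not start at 0. Model 1, Model 3 and Model 4 lie below every Control library in the first and second panel and above each of them in the third, while Model 2 does not.

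**Figure D3:**
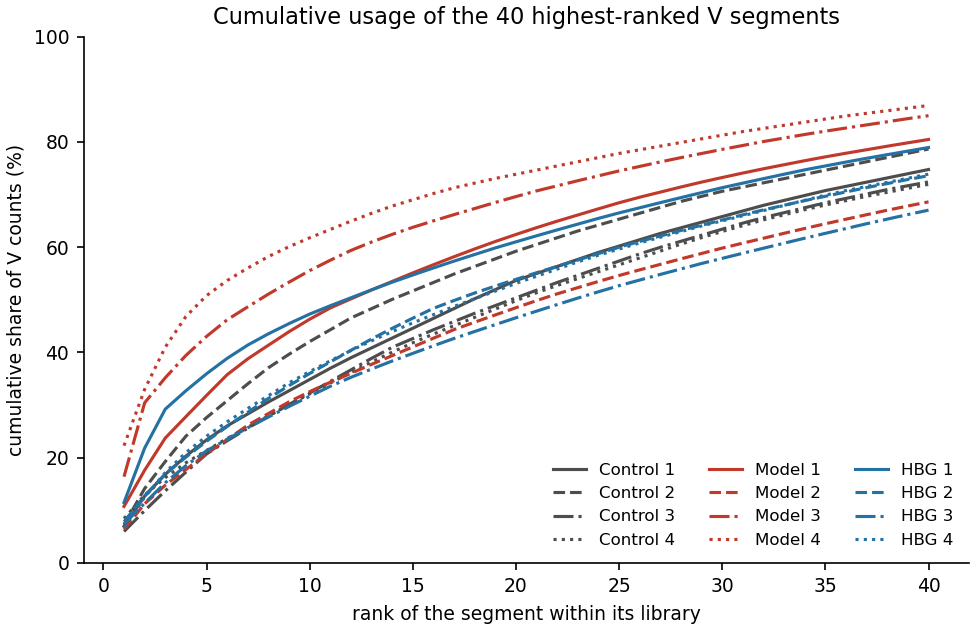
Cumulative share of a library's V counts (percent, vertical axis) over its 40 highest-ranked segments (horizontal axis), with 1 line per library, coloured by group. Model 4 and Model 3 rise fastest, with 61.8 and 55.6% at rank 10, and HBG 3 and Control 4 are among the slowest, with 31.7 and 32.1%.

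The leading segment was the same in 8 of 12 libraries and differed in Control 2, HBG 4, Model 3 and Model 4. Igkv10-96 led in 8 libraries: Control 1, Control 3, Control 4, Model 1, Model 2 and HBG 1 to 3, together with Control 2 when counts were divided by length. Its share of the V counts was 5.96 to 8.41% in Control, 10.7, 6.39, 4.77 and 1.68% in Model 1 to 4 and 11.5, 7.82, 7.35 and 5.85% in HBG 1 to 4. By counts Iglv1 led in Control 2 with 7.22% and in HBG 4 with 6.63%. Model 3 was led by Igkv14-111 with 16.4% (95% exact Clopper-Pearson interval 15.0 to 17.8%), followed by Iglv1 with 14.0%. Model 4 was led by Igkv6-20 with 22.3% (interval 19.75 to 24.97%), followed by Ighv1-20 with 10.7% and Ighv1-19 with 8.02%. With no molecular identifiers on the reads, such intervals describe counting error alone.

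Of the 3 leading segments of Model 4, Igkv6-20 and Ighv1-20 were high in that library only. Igkv6-20 was at 11.4 CPM in Model 4, against 0.045 to 2.24 CPM in the other Model libraries, 0 to 0.893 CPM in Control and 0.609 to 1.46 CPM in HBG. Ighv1-20 was at 5.47 CPM in Model 4 and at most 0.373 CPM in the other 11 libraries, with 0 counts in 8 of them. Ighv1-19, in contrast, was at 4.11 CPM in Model 4 and at 2.40 to 6.82 CPM in the other Model libraries, and its share of 8.02% there belongs to a total of 51.2 CPM. Within the pair Ighv1-19 and Ighv1-20, Ighv1-20 took 57.1% of the counts of both in Model 4 and at most 2.97% elsewhere, although the sequences differ at 31 bases. Igkv6-20 likewise took nearly all counts of its pair in Model 4, where Igkv6-15 held 3.43% of both against 33.3 to 100% elsewhere. The heavy effective number was 8.20 in Model 4 against 17.1 to 37.0 elsewhere, and the kappa effective number 4.52 against 8.30 to 28.35.

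Model 1 and HBG 1, the other concentrated libraries, were led by Igkv10-96 and differed in their leading heavy segment. In Model 1 the leading heavy segment was Ighv1-64, at 16.1 CPM and 16.65% of the heavy counts, against 0.355 to 6.25 CPM in the other Model libraries and 17.0 CPM in HBG 1. In HBG 1 it was Ighv1-72, known for the response to the hapten nitrophenyl, at 23.5 CPM against 0.554 to 5.14 CPM in the other HBG libraries and 0.550 to 1.53 CPM in Control. Ighv1-5 was at 21.7 CPM in HBG 1 and at most 0.661 CPM in the other 11 libraries. Igkv1-133 and Igkv1-122, chosen after their values were seen, were at 14.4 and 9.22 CPM in HBG 1 and at most 0.850 and 1.56 CPM elsewhere. In all, 32 of 170 members had over 50% of their CPM, summed over the 12 libraries, in a single library. HBG 1 was that library for 18 of them, HBG 3 for 6, Model 2, Model 4 and HBG 2 for 2 each, and Model 1 and Model 3 for 1 each. HBG 1 and HBG 3 also had the highest level of 70 and 64 members. Some of the 32 rest on few counts, such as Ighv14-1 with 6 of its 10 counts in HBG 3 and Ighv2-6-8 with 8 of 12 there. The share of all genes with over 50% of their CPM in a single library was not computed.

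**Figure D4:**
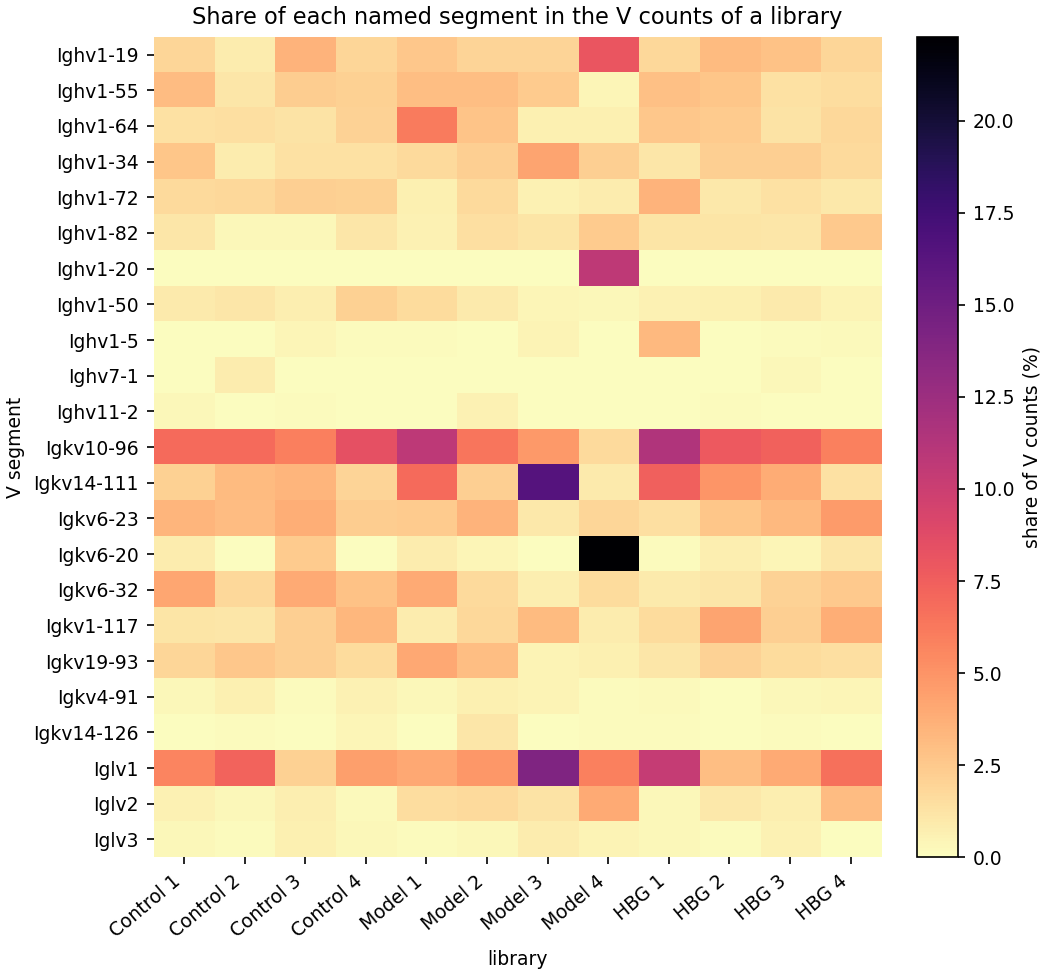
Share of each of 23 named V segments (rows) in the V counts of each library (columns), in percent by colour. Igkv10-96 is used in every library, whereas the darkest cells are Igkv6-20 in Model 4 (22.3%) and Igkv14-111 in Model 3 (16.4%), and Ighv1-20 stands out only in Model 4 (10.7%).

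The similarity of usage between libraries was computed over all 170 members. The Morisita-Horn index, which is 1 for identical shares and 0 for no shared segment, was 0.728 to 0.892 between Control libraries and 0.724 to 0.914 between HBG libraries. Between Model libraries it was 0.252 to 0.826. Model 4 had an index of 0.215 to 0.335 with each of the other 11 libraries, whereas the pairs without Model 4 lay between 0.498 and 0.927. The highest index of all, 0.927, joined Model 2 and HBG 3. Families, the groups of segments with similar sequence, were summed as well. The Ighv1 family, which holds 43 of the 84 heavy members, took 67.5 to 82.9% of the heavy counts across the 12 libraries. The Igkv6 family took 58.2% of the kappa counts in Model 4 against 5.54 to 24.8% elsewhere, and the Igkv14 family 31.4% in Model 3 against 2.25 to 15.2% elsewhere.

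Apart from Ighv1-72, given above, the segments named for particular antibody responses were at most 2.42 CPM in any library. Ighv11-2 and Igkv14-126, which together form receptors for phosphatidylcholine on B-1 cells, an innate-like B cell type, were both highest in Model 2. Ighv11-2 was at 1.21 CPM there and at most 0.279 CPM elsewhere, and Igkv14-126 at 2.42 CPM there and at most 0.661 CPM elsewhere. Ighv12-3, the other heavy segment of such receptors, had 1 count each in 2 libraries and was no member. Igkv4-91, also used by B-1 cells, was at 0.039 to 0.394 CPM in Control, 0.051 to 1.56 CPM in Model and 0.054 to 1.32 CPM in HBG. Ighv7-1, used in antibodies to phosphorylcholine, was detected in 4 libraries and reached 1.04 CPM in HBG 3.

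Single segments were then tested between the groups with edgeR's quasi-likelihood test across all 17827 genes that passed its filter on low counts, with Benjamini-Hochberg adjustment. Of the 170 members 84 entered the test (36 heavy, 45 kappa and 3 lambda), and these held 87.1% of the V counts. Between Model and Control 1 of the 84 passed an adjusted p of 0.05, Iglv2, where 0.0505% of all tested genes passed in the higher direction. Groups did not overlap, with Model higher, for 7 of 84 members and 4.21% of all tested genes, and some of the 7 were apart by few counts, as given below. At an unadjusted p under 0.05, 26 of 84 were higher in Model and 0 lower, against 6.36% of all genes higher and 5.33% lower. The median log2 fold change of the 84 was 1.73, with 81 positive, against a median of 0.01 over all genes, of which 51.5% were positive. By chain the median was 1.96 for heavy, 1.47 for kappa and 2.30 for lambda segments. Since members share their libraries and cells, these counts are not independent of each other, and they describe the members without a test of the set. The minimum summed count and the filter on low counts both used all 12 libraries. Members could thus enter through the bleomycin libraries where they were high, and their common direction can in part follow from that choice. With Model and Control fitted alone, 38 members entered, with a median of 1.76, by a filter that still included Model.

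Between HBG and Control 1 of 84 passed as well, again Iglv2, against 0.0224% of all genes in the higher direction. HBG and Control did not overlap for 13 of 84 members (all genes 2.42%), 61 were higher and 0 lower at an unadjusted p under 0.05 (all genes 3.59% higher and 4.66% lower), and the median log2 fold change was 2.58, with 84 positive (all genes 51%). Between HBG and Model 0 of 84 passed with edgeR, where 0% of all genes passed. At an unadjusted p under 0.05, 7 were higher in HBG and 0 lower (all genes 0.735% higher and 1.69% lower). DESeq2 also called 0 members, and 3 of all genes. HBG lay above Model with no overlap for 0 members (all genes 0.454%). The median log2 fold change between HBG and Model was 0.85, with 72 of 84 positive (all genes 50.1%). That median depended on single libraries. It was 0.23 without HBG 1, over the 85 members then tested, and 0.34 to 1.18 without each of the other libraries of these groups. Without Model 4 and HBG 1 together, chosen after seeing the data, it was -0.04. The comparisons share the Control or the Model libraries and are therefore not independent. The choice of members bears on the values for HBG and Control in the same way. With these 2 groups fitted alone, 47 members entered, with a median of 2.45.

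Iglv2 rose in the bleomycin lungs in both comparisons with Control. Its counts were 4, 2, 7 and 3 in Control 1 to 4. They were 77, 76, 33 and 40 in Model 1 to 4 and 50, 18, 58 and 32 in HBG 1 to 4. No Control library reached the lowest bleomycin library, and Model and HBG overlapped. Its level averaged 0.184 ± 0.075 CPM in Control, 2.86 ± 1.30 CPM in Model and 1.95 ± 0.764 CPM in HBG (SD, n = 4 each). The log2 fold change was 3.90 ± 0.48 (SE) for Model over Control (edgeR adjusted p = 0.0043) and 3.35 ± 0.48 for HBG over Control (adjusted p = 0.016). The second call rested on the libraries used, and the adjusted p was 0.0734, 0.0724, 0.0576 and 0.0902 without Control 1, 2, 3 and 4 and 0.0527 without HBG 1. The first call held without each library in turn, with an adjusted p of at most 0.0261. Without Control 4, Model 2 and HBG 3 together, the libraries richest in B cell markers, the adjusted p was 0.0492 for Model over Control and 0.14 for HBG over Control. Between HBG and Model the log2 fold change was -0.55 ± 0.40 (adjusted p = 1.0).

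The near copy Iglv1 and the third lambda segment, Iglv3, differed less clearly. Iglv1 was at 2.32, 2.25, 0.776 and 3.20 CPM in Control 1 to 4, at 10.6, 11.2, 17.0 and 2.99 CPM in Model 1 to 4 and at 69.6, 2.97, 15.7 and 3.77 CPM in HBG 1 to 4. Model 4 and HBG 2 lay inside the Control range. The log2 fold change of Iglv1 was 2.30 ± 0.93 for Model over Control (edgeR adjusted p = 0.372) and 3.44 ± 0.96 for HBG over Control (adjusted p = 0.325). Iglv3 averaged 0.159 ± 0.096 CPM in Control, 0.542 ± 0.354 CPM in Model and 1.13 ± 1.21 CPM in HBG, and had 0 counts in HBG 4. Iglv2 took 8.51, 4.26, 25.9 and 4.41% of the counts of Iglv1 and Iglv2 together in Control, 27.9, 25.5, 8.05 and 40.4% in Model and 3.24, 24.7, 14.9 and 32.0% in HBG. These shares overlapped between all groups, and reads that cover none of the 11 differing bases cannot be assigned to 1 of the 2 genes by sequence.

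**Figure D5:**
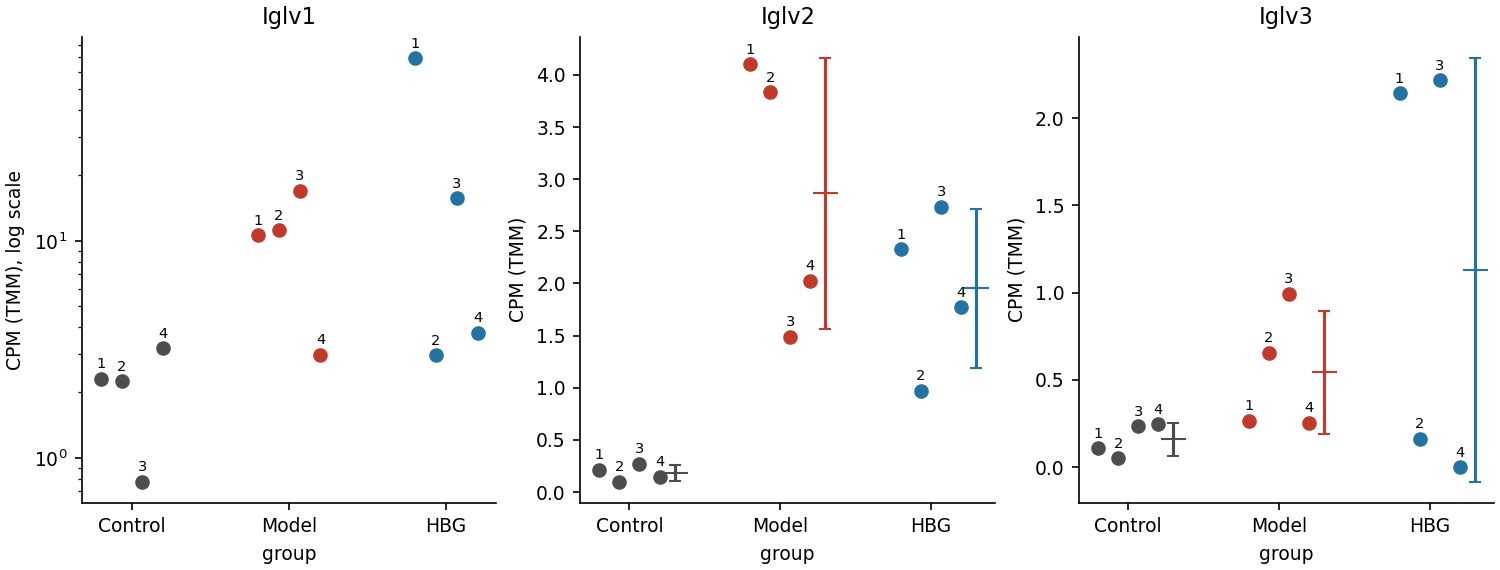
Levels of the 3 lambda segments in each library (CPM with TMM factors, Iglv1 on a log scale, Iglv2 and Iglv3 on linear scales), with 1 numbered point per library and, for Iglv2 and Iglv3, the group mean ± SD. All 8 bleomycin libraries lie above the 4 Control libraries for Iglv2, while for Iglv1 Model 4 and HBG 2 lie in the Control range.

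The most abundant kappa segments did not pass the test, and their levels differed widely between libraries of a group. Igkv10-96 was at 2.80, 2.15, 2.21 and 6.01 CPM in Control 1 to 4, at 28.2, 14.8, 5.79 and 0.862 CPM in Model 1 to 4 and at 77.2, 7.67, 28.9 and 3.32 CPM in HBG 1 to 4. Its level in Model 4 was below every Control library and that in HBG 1 the highest of any segment in any library. Its log2 fold change was 1.91 ± 1.01 for Model over Control (edgeR adjusted p = 0.500) and 3.16 ± 1.05 for HBG over Control (adjusted p = 0.462). Igkv14-111 was at 0.861 to 1.43 CPM in Control, at 18.1, 5.14, 19.9 and 0.456 CPM in Model 1 to 4 and at 49.8, 4.81, 15.2 and 0.776 CPM in HBG 1 to 4. Model 4 and HBG 4 were below every Control library, though by few counts. Igkv14-111 had 9 counts in Model 4 and 14 in HBG 4, against 16 to 33 in Control. Its log2 fold change was 3.24 ± 1.17 for Model over Control (adjusted p = 0.317) and 3.94 ± 1.19 for HBG over Control (adjusted p = 0.392). The other 4 most abundant kappa segments, Igkv6-23, Igkv6-32, Igkv1-117 and Igkv19-93, had Control means of 0.876 to 1.43 CPM and Model means of 2.63 to 4.65 CPM.

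Some heavy segments had a narrower spread among the Model libraries, while others, such as Ighv1-64 and Ighv1-55, did not. Ighv1-19 was at 0.754, 0.250, 1.32 and 1.33 CPM in Control 1 to 4, at 6.82, 4.49, 2.40 and 4.11 CPM in Model 1 to 4 and at 12.2, 3.13, 11.1 and 1.05 CPM in HBG 1 to 4. Each Model library was above every Control library, and HBG 4 was within the Control range. Ighv1-82 was at 0.100 to 0.789 CPM in Control, 1.22 to 3.28 CPM in Model and 1.19 to 7.73 CPM in HBG, with both bleomycin groups above Control. Ighv1-34 was at 0.250 to 1.08 CPM in Control, 1.12 to 5.15 CPM in Model and 0.942 to 8.59 CPM in HBG. The 7 tested members with Model above Control in every library were Ighv1-19, Ighv1-34, Ighv1-53, Ighv1-82, Ighv5-17, Iglv2 and Iglv3. Some of them were apart by scaling or few counts. Ighv1-53 had 8 counts in both Control 4 and Model 4, and Ighv1-34 had 20 in Control 1 and 22 in Model 4. Iglv3 also rested on few counts. Of the 7, 5 are heavy segments and 2 lambda, and 0 are kappa.

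For comparison, the variable segments of T cell receptors, which T cells join in the same way, were far less abundant. The 29 such rows that reached a summed count of 10 added up to 0.550 to 3.70 CPM in the Control libraries, 1.01 to 8.93 CPM in those of Model and 1.05 to 12.9 CPM in those of HBG. Of these rows, 0 entered the test. Their highest totals were in Model 2 and HBG 3, whereas the immunoglobulin totals were highest in Model 1 and HBG 1. Genes of recombination were near 0: Rag1 was at most 0.958 CPM and Rag2 at most 0.101 CPM, both in Model 2.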

How the data were processed

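Polyadenylated RNA from lung was sequenced with a stranded TruSeq kit as paired reads of 150 bases, per the labels' protocols. The values are estimated counts per gene as deposited by the authors in a single table. The unit was read from the values, of which 10 to 15.1% per library were not whole. The aligners STAR 2.7.9a and HISAT2, the counters HTSeq and featureCounts 2.0.1, the trimmers fastp, cutadapt and Trimmomatic 0.39, DESeq2 1.34.0 and the builds GRCm39 and mm10 are all named, per the submitters' processing notes. Which of them made the counts could not be read from these notes (not given in the sources used here). Coordinates shown are those of GENCODE M21 (GRCm38), matched by gene identifier. The deposited group means were not used, and the authors' gene length served only for the order per length.

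Counts were rounded. The total per library ranged from 17979863 to 27150787, and a count of 0 allows up to 3 counts, for counting error only. Replicates of a group were compared in pairs. Their chi-square over degrees of freedom was at least 11.65, and no pair agreed within sampling noise. Counts were scaled by TMM, filtered with filterByExpr and fitted with edgeR 4.0.16 (limma 3.58.1, the data.table package at version 1.17.8, R 4.3.3) by the quasi-likelihood F test over all 12 libraries with group as the term, and p-values (two-sided) were adjusted by Benjamini-Hochberg over 17827 genes at 0.05. Standard errors come from the F statistic. Totals, numbers of segments, effective numbers and similarity were computed in Python 3.11.15 (pandas 2.3.3, numpy 2.4.6, scipy 1.17.1, figures with matplotlib 3.10.9) and carry no test. Numbers of segments were compared after reducing each library to 623 V counts by expectation. The scripts were tested on simulated data.

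Alternatives were DESeq2 1.42.0, other scaling factors and filters, fits of 2 groups, a replicate block, other indices and leaving out libraries. The members, the gene lists and the rule for named segments (all lambda, the 6 highest of heavy and of kappa by mean CPM, the leader of each chain in each library, those past the test and 6 known from antibody responses) were chosen with earlier results of these data known. Replicate numbers did not pair the libraries, as same-number correlations ranged from -0.40 to 0.58.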

Additional observations from a re-analysis of the deposited data

Results flagged for a closer look

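For each of the 23 named segments and several library measures, the 4 libraries of a group were checked for 1 library far from the other 3 (by Dixon's test at 95%). Of 102 such groups 12 stood out, where chance flags about 5% of groups. Many of these segments were named because they led a library, so that share is no yardstick for the count. In Model 4, Ighv1-20 was high at 5.47 CPM (others 0 to 0.050) and Ighv1-34 low at 1.12 CPM (others 4.53 to 5.15). In HBG 1, Ighv1-5 was high at 21.7 CPM (others 0.054 to 0.661). In Model 2, Ighv11-2 was at 1.21 CPM (others 0), Igkv14-126 at 2.42 CPM (others 0.045 to 0.053) and Ighv7-1 at 0.101 CPM (others 0). In Control 4, the Control library with the most B cell marker RNA, Igkv10-96 was at 6.01 CPM (others 2.15 to 2.80), Ighv1-50 at 1.53 CPM (others 0.272 to 0.377), Ighv1-64 at 1.48 CPM (others 0.450 to 0.538), Igkv19-93 at 1.13 CPM (others 0.754 to 0.815) and Igkv14-126 at 0.296 CPM (others 0 to 0.050). In Control 2, Ighv7-1 was at 0.25 CPM (others 0). Ighv7-1 and Ighv11-2 rest on few counts.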

How the results depend on the processing

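Over 338 recomputed values, 313 kept their direction and their side of the threshold or moved by less than the spread between replicates. The number of segments called between Model and Control was 1, and became 2 with the 2 groups fitted alone and 6 with DESeq2. Over all genes these fits called 62, 70 and 418, and DESeq2 gave an adjusted p to 115 members. Between HBG and Control it was 1, and became 0 with the replicate block, 0 without Control 4, Model 2 and HBG 3 together, 0 without Model 4 and HBG 1 together (both chosen after seeing the data) and 26 with DESeq2. Over all genes the main fit called 27 for HBG and Control, and DESeq2 called 198 and gave an adjusted p to 126 members. Leaving out each library gave 0 to 1 calls of segments there. Between HBG and Model each alternative gave 0, where DESeq2 called 3 of all genes. The numbers do not pair the libraries, and the replicate block gave 1 call for Model over Control, 0 for HBG over Control and 0 between the bleomycin groups. In that fit the adjusted p of Iglv2 was 0.0345 for Model over Control and 0.0891 for HBG over Control. With DESeq2, Iglv1 (adjusted p = 0.025) and Igkv14-111 (adjusted p = 0.0383) also passed for HBG over Control, which edgeR did not call; the cause was not tested.

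The difference in the mean number of segments detected reversed without the reduction to equal V counts. Model minus Control was -15.6 at equal counts, 10.5 with at least 1 count and 30.5 with at least 10 counts, and HBG minus Control was -0.99, 23.5 and 55.25. The second of these alternatives also raises the minimum for detection. Leaving out 1 library at a time, the Model minus Control difference was -22.6 to -12.0 for segments detected, 1.40 to 2.19 for the log2 total and -1.29 to -0.60 for the log2 effective number. HBG minus Control ranged from -5.10 to 1.97, 1.60 to 2.79 and -0.28 to 0.08, and HBG minus Model from 10.5 to 21.6, -0.10 to 1.09 and 0.45 to 1.14. Depth limits the segments: 86 of 170 members were too low to be tested, and Control totals were 623 to 1451 V counts.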
